A study of Mus musculus with 4 samples.

Results

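Open chromatin of cultured mouse monocytes was compared with that of the common myeloid progenitors and granulocyte-monocyte progenitors (CMP/GMP) from which monocytes arise. The comparison took all 4 of the 4 libraries of the study: 2 of monocytes and 2 of CMP/GMP, where each cell type was represented by 1 library from wild-type (WT) mice and 1 from mice lacking the chemokine receptor gene Cxcr3 (Cxcr3-/-). The libraries were assigned by their labelled cell type, and the genotypes stood as the replicates of a cell type, so the spread within a cell type is that between a WT and a Cxcr3-/- library. Accessible intervals of the 4 libraries were merged into 120423 regions wherever they shared a base. Of these, 26167 regions that were called in all 4 libraries and had enough signal in their mean were tested.

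All libraries came from bone marrow-derived cells of the C57BL/6J strain. In the study, WT and Cxcr3-/- mice received diethylnitrosamine and tetrachloromethane, which produce liver tumours on a background of fibrosis, and the role of Cxcr3 in macrophage differentiation was examined. The labels name hepatocellular carcinoma as the disease state of every library, whereas the design text says that the cells used for accessibility were grown in vitro. Each genotype thus gave 1 library of progenitors and 1 of monocytes, and whether the donor mice had received the 2 agents is not stated. The culture conditions, the age of the mice, the deleted part of Cxcr3, the number of mice behind a library and any sorting of the cells were not stated in the labels. CMP/GMP is a mixture of progenitor types, and the labels do not give their proportions.

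CMP and GMP are dividing bone marrow progenitors that carry the stem cell factor receptor Kit and, at the GMP stage, switch on the genes for the proteases stored in the primary granules of neutrophils. Monocytes depend on the receptor for macrophage colony-stimulating factor, Csf1r, and on factors that include PU.1 (gene Spi1), Irf8 and Klf4, and they can become macrophages that take up dead cells, digest lipids and secrete complement. In ATAC-seq, here the Omni-ATAC protocol, a transposase cuts into DNA that is not covered by nucleosomes, so the number of tags stacked over a site (the pileup) measures how open that site is in the population.

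The lists held from 69521 to 98257 intervals and the median summit pileup was 21 tags in 3 libraries and 29 in Cxcr3-/- CMP/GMP. The background tag level was higher in CMP/GMP (1.59 tags in WT and 2.43 in Cxcr3-/-) than in monocytes (0.96 and 1.08). Below, pileups are scaled so that the regions called in all 4 libraries have the same typical height, and 4 values given in a row always put CMP/GMP before monocytes and, within each, WT before Cxcr3-/-. Differences are monocytes minus CMP/GMP on the log2 scale, so 1 stands for 2-fold, and positive values are higher in monocytes. A p-value here measures only the spread between these 4 libraries, and an exact permutation test of 2 against 2 libraries cannot give less than 0.3333 for a single value. Adjusted p-values below are from limma, fitted over all regions or all genes, with Benjamini-Hochberg adjustment and a threshold of 0.05. Whether genotype alters the difference between the cell types could not be tested with 1 library per genotype and cell type. The share of all regions or genes whose groups do not overlap was not counted, so non-overlap below only describes the locus.

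Start sites at which accessibility differed in both genotypes are shown first, as the promoters of 6 genes with defined roles. They are C1qb, which encodes a chain of complement C1q, C3ar1, the receptor for complement C3a, and Trem2, a lipid-sensing receptor of macrophages, all more open in monocytes. The others are Kit, Runx3, a transcription factor gene of the Runt family, and Gfi1, a repressor gene of granulocyte development, all more open in CMP/GMP. The genes were chosen after their values were seen. Each sequence is the 250 bases before the annotated start, 5′ to 3′ on the strand of the gene, from RefSeq for GRCm38.p6 (mm10). Capitals mark matches on either strand to the letters of an AP-1 site (TGANTCA, where N is any base), a RUNX site (TGTGGTT), a KLF site (CCCCACCC), a GATA site (AGATAAG) or an NR4A site (AAAGGTCA). Of all promoters, 7.85%, 5.29%, 10.1%, 3.04% and 1.52% hold these in the same order.
C1qb, chr4:136886201-136886450, minus strand: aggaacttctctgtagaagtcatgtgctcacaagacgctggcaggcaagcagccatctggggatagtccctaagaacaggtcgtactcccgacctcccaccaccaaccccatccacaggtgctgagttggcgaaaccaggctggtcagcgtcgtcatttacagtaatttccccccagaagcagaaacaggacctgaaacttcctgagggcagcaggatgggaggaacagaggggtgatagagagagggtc
C3ar1, chr6:122856158-122856407, minus strand: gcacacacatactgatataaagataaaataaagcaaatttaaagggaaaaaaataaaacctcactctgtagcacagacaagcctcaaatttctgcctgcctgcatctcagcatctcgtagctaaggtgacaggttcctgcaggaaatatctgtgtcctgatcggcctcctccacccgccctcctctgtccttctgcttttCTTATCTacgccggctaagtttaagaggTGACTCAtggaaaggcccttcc
Trem2, chr17:48346151-48346400, plus strand: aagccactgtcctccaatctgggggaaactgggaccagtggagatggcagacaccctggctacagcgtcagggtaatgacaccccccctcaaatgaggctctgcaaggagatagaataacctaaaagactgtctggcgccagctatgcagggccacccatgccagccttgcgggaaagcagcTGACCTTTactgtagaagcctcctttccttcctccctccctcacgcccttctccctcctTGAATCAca
Kit, chr5:75574737-75574986, plus strand: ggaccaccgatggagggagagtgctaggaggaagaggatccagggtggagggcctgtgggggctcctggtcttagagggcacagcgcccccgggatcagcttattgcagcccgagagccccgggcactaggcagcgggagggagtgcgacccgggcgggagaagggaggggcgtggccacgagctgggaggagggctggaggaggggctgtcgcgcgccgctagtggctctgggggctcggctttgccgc
Runx3, chr4:135120395-135120644, plus strand: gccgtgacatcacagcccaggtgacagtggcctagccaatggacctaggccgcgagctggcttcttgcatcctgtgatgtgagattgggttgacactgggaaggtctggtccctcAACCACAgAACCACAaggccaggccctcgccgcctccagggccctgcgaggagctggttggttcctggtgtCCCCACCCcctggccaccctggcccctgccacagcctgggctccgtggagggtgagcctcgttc
Gfi1, chr5:107725806-107726055, minus strand: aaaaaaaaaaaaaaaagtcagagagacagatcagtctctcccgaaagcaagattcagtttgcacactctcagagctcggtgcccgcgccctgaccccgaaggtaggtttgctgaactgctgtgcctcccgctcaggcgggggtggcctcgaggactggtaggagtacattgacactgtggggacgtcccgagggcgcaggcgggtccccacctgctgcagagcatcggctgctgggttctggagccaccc

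The region over the C1qb start had scaled pileups of 13.3, 11.8, 61.4 and 55.5 tags, a log2 difference of 2.22 ± 0.29 (SE, adjusted p = 3.96e-09). At C3ar1 the values were 30.3, 30.3, 124 and 99.3 (1.87, SE 0.21), and at Trem2 they were 33.9, 31.7, 93.9 and 85.1 (1.45, SE 0.22). At these 3 starts both monocyte libraries were higher than both CMP/GMP libraries, and the AP-1 letters occurred in the C3ar1 and Trem2 promoters and not in the window of C1qb. Kit had 65.4, 59.8, 16.7 and 13 tags at its start (-2.08, adjusted p = 7.95e-09), Runx3 86.0, 90.8, 19.5 and 14.2 (-2.41, 1.19e-11) and Gfi1 43.6, 62.7, 10.2 and 13 (-2.18, 2.15e-08). Here both CMP/GMP libraries were higher, and this call also held when pileups were scaled by background tags instead (-1.28, -1.61 and -1.38 in the same order). The Runx3 promoter, which held both RUNX matches and the KLF match, was 65.2% G and C. The Kit promoter, 70.8% G and C, and the Gfi1 promoter held none of the 19 letter strings searched, which says only that these letters are not in the window.

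Across the genome, more regions were higher in monocytes than in CMP/GMP. Of the 26167 tested regions, 6458 (24.7%) were higher in monocytes and 3853 (14.7%) in CMP/GMP. Of the 13564 protein-coding genes with a tested region inside the gene or within 10 kb, 1968 (14.5%) had a higher mean pileup in monocytes and 1612 (11.9%) in CMP/GMP. In such bulk libraries, fewer cells with an open site and fewer cuts per cell cannot be told apart.

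The difference had the same sign in WT and Cxcr3-/- at 19633 regions (75.0%) and 9309 genes (68.6%). It was at least 2-fold in both genotypes at 2212 regions toward monocytes and 877 toward CMP/GMP, and at least 4-fold in both at 276 and 98. By comparison, the log2 difference between the genotypes within a cell type had an SD of 0.361 over regions in monocytes and 0.302 in CMP/GMP. The balance of the directions depended on the scaling. Dividing by background tags in place of shared regions added the same amount to every difference, which raised the median to 0.88 over regions and to 0.80 over genes, and gave 15057 and 383 regions and 6245 and 50 genes higher in monocytes and CMP/GMP. Quantile normalization gave 5321 and 4893 regions and 1600 and 2440 genes. All 50 genes and 383 regions higher in CMP/GMP by background scaling were also higher by the main scaling. The added constant largely brings this about, so it is no separate check. Toward CMP/GMP, the values that follow are therefore relative to the typical shared region, and the calls that held with background scaling are named as such. Counts of list members under another setting are to be read beside the counts over all genes under that setting. With genotype as a term these were 1427 and 1098 genes, and calls were also fewer when either CMP/GMP library was left out.

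**Figure D1:**
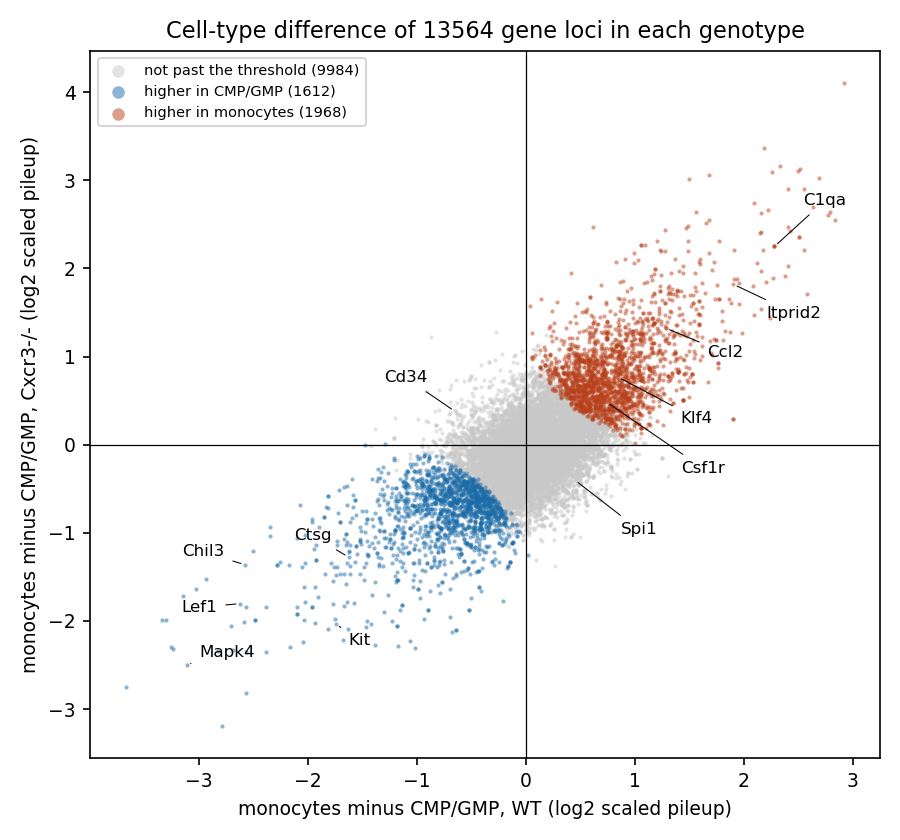
Each point is 1 of 13564 gene loci, with the log2 difference of monocytes minus CMP/GMP in WT on the horizontal axis and in Cxcr3-/- on the vertical axis. Genes called higher in monocytes are red (1968) and in CMP/GMP blue (1612), and the other 9984 are grey. All but 2 of the called genes have the same sign in both genotypes, which a call nearly requires, since opposite signs widen the spread within a cell type. Over all genes the sign is the same at 68.6%.

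The locus that ranked first toward monocytes by the smaller of its differences in the 2 genotypes was Itprid2, among genes with 3 or more tested regions. Itprid2 (chr2:79588863-79672966), which encodes a protein with a domain that interacts with the inositol trisphosphate receptor, had mean pileups of 32.9, 42.7, 123 and 151 tags, a difference of 1.86 ± 0.18 (SE, adjusted p = 2.72e-08). Its regions did not move alike. A region 30.3 kb downstream of the start had 15.7, 18.5, 135.8 and 196 tags, whereas one at 46.3 kb had 116, 124, 122 and 118. Atp2c1, a calcium pump gene of the Golgi, had 25.2, 31.9, 72.1 and 95.2 (1.55 ± 0.19), and Elk3, an ETS factor gene, had 31.5, 25.1, 82.4 and 84.0 (1.56 ± 0.19). Ifi204, an interferon-inducible DNA sensor gene, had 33.3, 31.2, 82.7 and 109 (1.56 ± 0.18). In each of these loci the groups did not overlap, which the ranking by both genotypes favours. The other 8 genes of this rank were the junction adhesion gene Jam3, the protocadherin gene Fat3, the endothelin-converting enzyme gene Ece1, and Lix1, Mylk2, Spsb4, Chchd6 and Rnf150, with differences from 1.32 to 1.60. Fat3 also held 17 regions and Chchd6 12 that were called in both monocyte libraries and in neither CMP/GMP library.

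Toward CMP/GMP the first locus was Mapk4, an atypical MAP kinase gene, with 84.9, 85.6, 9.82 and 15.1 tags and a difference of -2.81 ± 0.26 (SE, adjusted p = 2.29e-08). Both CMP/GMP libraries stood more than 5-fold above both monocyte libraries, and Mapk4 was still called with background scaling (-2.01). Ctsg (chr14:56099885-56102574), which encodes cathepsin G of primary granules, followed with 62.4, 52.9, 20.2 and 21.8 (-1.45 ± 0.23 SE, adjusted p = 4.87e-05). Sox4, a factor gene of immature cells, had 71.6, 70.9, 32.7 and 31.5 (-1.15 ± 0.18 SE, adjusted p = 4.26e-05), and all of its 3 tested regions were higher in CMP/GMP. Ppargc1a, a coactivator gene of mitochondrial biogenesis, had 54.9, 58.6, 20.1 and 24.5 (-1.35 ± 0.23). Rhoh, a blood-cell GTPase gene (-1.19), Pik3ip1, a PI3-kinase inhibitor gene (-1.09), Ryr1, a calcium channel gene (-1.22), and Plekhg5, Oprm1, Epb41l4a, Slc44a5 and Slc25a53 completed the 12. With background scaling the calls of these 11 genes other than Mapk4 ended. Without the WT CMP/GMP library the call of Ryr1 was lost, without the Cxcr3-/- one that of Plekhg5, and that of Slc25a53 when either CMP/GMP library was left out.

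Single regions differed more than whole loci. In Frmd4a, a gene of epithelial polarity, a region at chr2:4318086-4318577 had 10.9, 10.3, 133 and 152 tags and was 13.4-fold higher in monocytes. Regions in Itprid2, Gucy2g and N4bp2l2, at 26765 bp from Tmem230, 16621 bp from Larp4b, 58965 bp from Atp6v1g3 and 253685 bp from Fshr were 8.27 to 10.3-fold higher in monocytes. In CMP/GMP the region that ranked first lay inside Mapk4 (136, 142, 6.51 and 11.8 tags, 15.8-fold). One 34729 bp from Ikzf2, a zinc finger factor gene of lymphoid and progenitor cells, had 82.4, 83.4, 8.37 and 8.27 tags (9.96-fold). Regions inside Bcr (8.85-fold), Man1a (9.45-fold), Mta3, Dym, Mei4 and 3110082I17Rik were also at least 7.94-fold higher in CMP/GMP. At all 16 of these regions both libraries of one cell type exceeded both of the other, which the choice by a large difference in both genotypes brings about. Before scaling, the monocyte libraries had 7 and 10 tags in the Mapk4 region and the CMP/GMP libraries 9 and 14 in the Frmd4a region. The lowest called pileups of the libraries ran from 5 to 9 tags, so these folds are coarse.

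Presence of a call gave a further view, since a region with too few tags is missing from a list and has no pileup there. Of the 120423 regions, 44591 (37.0%) were called in all 4 libraries, 17362 (14.4%) in both monocyte libraries only and 8764 (7.28%) in both CMP/GMP libraries only. By contrast 932 were called in both WT libraries only and 592 in both Cxcr3-/- libraries only. The lists differ in length, and with each cut to the length of the shortest the counts were 13417 monocyte-only and 11690 CMP/GMP-only regions. Most cell-type-only regions were weak: the lower of the 2 scaled pileups reached 30 tags in 3193 of the monocyte-only and 746 of the CMP/GMP-only regions. The strongest monocyte-only region lay in Camk2d, a calcium-dependent kinase gene, at chr3:126831386-126831963 with 219 tags in WT and 247 in Cxcr3-/- monocytes. Next came regions in Abhd12, a lysophospholipid hydrolase gene (168 and 193 tags), in Fam20a, in Anxa5, the gene of the phosphatidylserine-binding annexin A5, in Mapkapk3, and 238579 bp from Zswim6. The strongest CMP/GMP-only region covered the 3′ end of Jun, an AP-1 subunit gene, with 194 and 183 tags. Others lay 2027 bp from Rae1 (114 and 126 tags), in Tmed3, 108806 bp from Nxt1, 56906 bp from Kctd1 and 3 bp from H3f3b, which encodes histone H3.3.

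The loci of progenitor genes were in part more open in CMP/GMP. Kit (chr5:75574987-75656722) had mean pileups of 59.0, 57.9, 17.6 and 14.1 tags, a difference of -1.89 ± 0.26 (SE, adjusted p = 1.02e-05), and remained called with background scaling (-1.09, adjusted p = 0.0244). Both of its tested regions, at the start and 817 bp downstream, had less than 20 tags in each monocyte library, whereas a weaker region 29 kb downstream had 20.6, 24.4, 20.5 and 26.0. Flt3, the receptor gene of early progenitors and dendritic cell precursors, had 61.2, 69.9, 43.0 and 44.7 (-0.58 ± 0.18 SE, adjusted p = 0.0158). A region shared by Hoxa3, Hoxa7, Hoxa9 and Hoxa10, homeobox genes of immature cells, had 42.4, 39.1, 22.3 and 26.0 (-0.76 ± 0.26 SE, adjusted p = 0.0289). At both loci the groups did not overlap, but with background scaling the difference turned to 0.22 at Flt3 and 0.04 at Hoxa9, and both calls were lost when either CMP/GMP library was left out. Cd34, a surface marker gene of progenitors, had 61.6, 46.8, 39.3 and 60.8 (-0.14 ± 0.20 SE, adjusted p = 0.668), with overlapping groups, and Meis1, the partner factor gene of Hoxa9, had 60.3, 61.8, 58.9 and 61.3 (-0.02 ± 0.17 SE, adjusted p = 0.936). Gata2 and Myb, factor genes of early progenitors, had no region that reached the tested level. Gata2 held 6 weak regions, and Myb held 12, of which 4 were called in both CMP/GMP libraries only, the strongest with 41.2 and 43.6 tags.

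Of 24 progenitor factor genes tested, 8 (33.3%) were higher in CMP/GMP and 3 (12.5%) in monocytes, against 11.9% and 14.5% of all genes, with a median difference of -0.25 against 0.004 over all genes. Beside Sox4 and the Hoxa genes, those higher in CMP/GMP were Ikzf1 (-0.64), Ikzf2 (-0.64), Mycn (-0.66) and Erg (-0.57), a group with roles in lymphoid and stem cells. Hoxa7, Hoxa9 and Hoxa10 share 1 tested region and were each counted, which raises the share toward CMP/GMP. The 24 genes held 22 different sets of regions. Fli1 (0.52), an ETS factor gene, Zfpm1 (0.60), the GATA cofactor gene, and Tcf7l2 (0.54), a Wnt pathway factor gene, were higher in monocytes. Without the WT or the Cxcr3-/- CMP/GMP library the count toward CMP/GMP was 2 or 1 and that toward monocytes 0 or 1. With genotype as a term the counts were 2 and 1, and with background scaling 0 and 8. Of 12 progenitor surface and signalling genes, 4 were higher in monocytes (among them Dntt at 1.76, Il6st at 0.71 and Il1r1 at 0.57) and 2 in CMP/GMP (Kit and Flt3), and 2 and 1 when either CMP/GMP library was left out. Fli1, Tcf7l2 and Il1r1 lost their calls when either CMP/GMP library was left out, Fli1 also without Cxcr3-/- monocytes, Il1r1 and Zfpm1 without WT monocytes, and Zfpm1 without WT CMP/GMP.

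**Figure D2:**
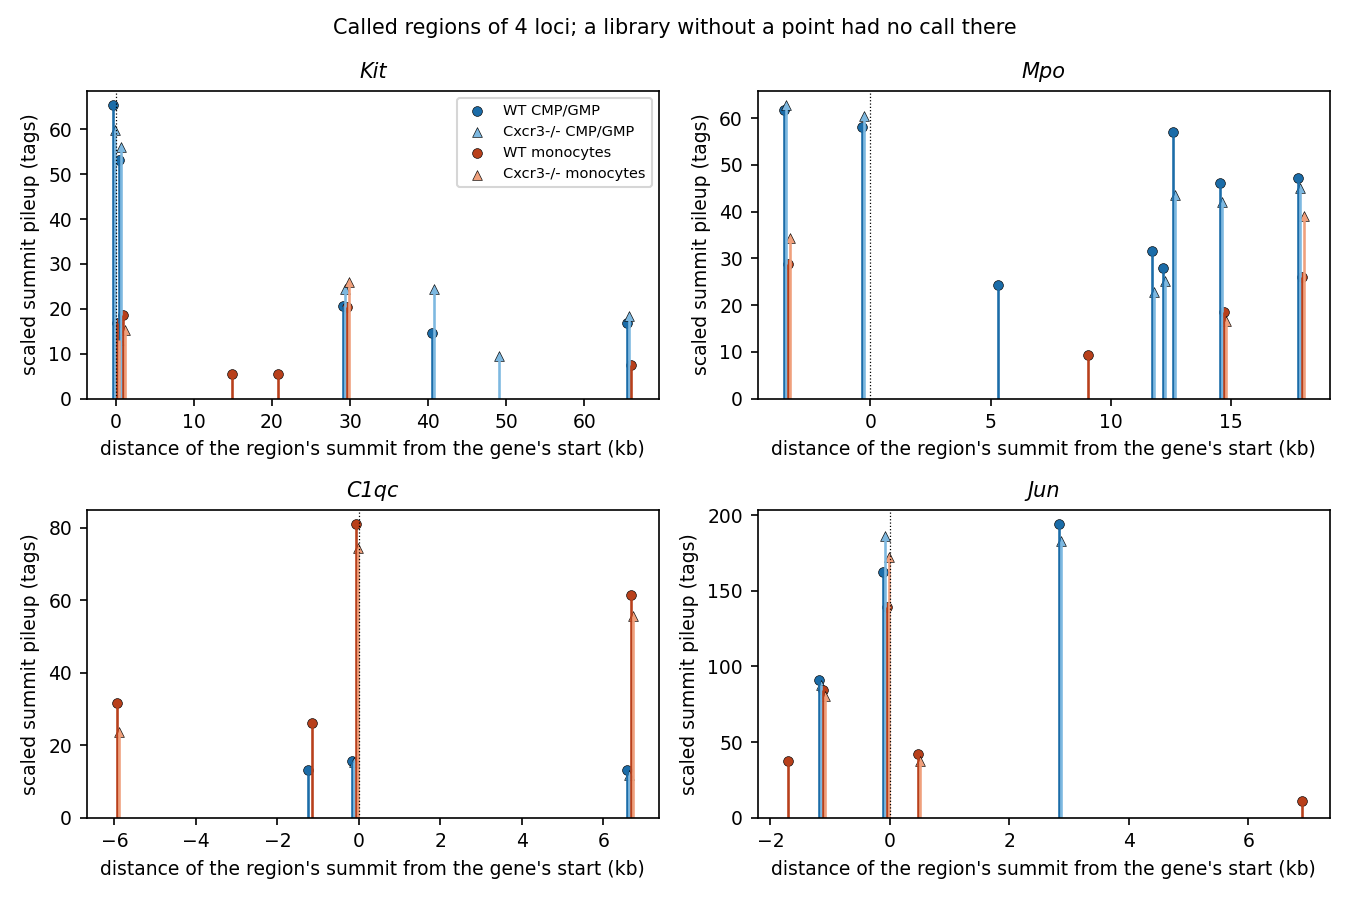
For the loci of Kit, Mpo, C1qc and Jun, each point is a called region, with the distance of its summit from the gene start in kb on the horizontal axis and its scaled pileup in tags in each library on the vertical axis. At the start of Kit the CMP/GMP libraries reached 65.4 and 59.8 tags and the monocyte libraries 16.7 and 13, and the CMP/GMP-only regions of Mpo and of the 3′ end of Jun have no monocyte point.

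Of the lists examined, granule protease and neutrophil genes had the largest share called toward CMP/GMP with the main settings. Of 17 tested, 9 (52.9%) were higher in CMP/GMP and 2 (11.8%) in monocytes, against 11.9% and 14.5% of all genes. The median difference was -0.56, and the 17 genes held 16 different sets of regions. Mpo (chr11:87793784-87804412), the myeloperoxidase gene, had 51.2, 49.2, 24.1 and 28.1 (-0.95 ± 0.22 SE, adjusted p = 0.00252). Its start lay in a region that was called in CMP/GMP only, with 58.1 and 60.5 tags, and 4 of its 9 regions had that pattern. Elane and Prtn3, neighbouring genes of neutrophil elastase and proteinase 3, shared a tested region with 59.3, 86.4, 43.7 and 31.9 tags (-0.94 ± 0.20 SE, adjusted p = 0.0011), and the Elane start was again called in CMP/GMP only (30.3 and 41.3 tags). Ctsg had 66.6 and 69.4 tags at its start in CMP/GMP, no call in WT monocytes and 14.2 in Cxcr3-/- monocytes. All 3 loci were high in both CMP/GMP libraries.

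Chil3, which encodes the chitinase-like protein Ym1 of myeloid precursors, had 66.6, 51.7, 11.2 and 20.1 (-1.97 ± 0.30 SE, adjusted p = 2.54e-05), and Fcnb, the ficolin B gene, 89.6, 113, 39.1 and 40.2 (-1.34 ± 0.17). Lactoferrin (Ltf, -0.78), Serpinb1a (-0.65), an inhibitor of granule proteases, and haptoglobin (Hp, -0.56) were the remaining genes higher in CMP/GMP. The gelatinase gene Mmp9 (26.0, 26.0, 56.8 and 47.7 tags, 1.00 ± 0.22) and S100a8 (0.53), a calprotectin subunit gene, were higher in monocytes. With background scaling the calls toward CMP/GMP ended in this list except for Chil3 (-1.17, adjusted p = 0.0164). The count of 9 became 3 without the Cxcr3-/- CMP/GMP library and 7 without the WT one. Mpo and S100a8 lost their calls when either CMP/GMP library was left out, Elane without the Cxcr3-/- one, and S100a8 also without Cxcr3-/- monocytes.

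Of 27 myeloid lineage factor genes tested, 8 (29.6%) were higher in monocytes and 2 (7.41%) in CMP/GMP, against 14.5% and 11.9% of all genes, with a median difference of 0.12. The counts were 3 and 1 without WT CMP/GMP, 4 and 0 without Cxcr3-/- CMP/GMP, and 15 and 0 with background scaling. Klf4, a factor gene of monocyte differentiation, had 41.2, 38.4, 73.9 and 65.4 (0.81 ± 0.18 SE, adjusted p = 0.00138), and 2 monocyte-only regions lay 8.9 and 9.4 kb upstream of its start. Maf, a factor gene of macrophages, had 53.3, 36.9, 82.8 and 91.0 in its single tested region (0.97 ± 0.18 SE, adjusted p = 0.000324). Irf8, required for monocytes and dendritic cells, had 38.1, 30.4, 63.2 and 46.2 (0.67 ± 0.21 SE, adjusted p = 0.0188). At its start the difference was 0.28 and did not pass, and the higher values came from a region 27 kb downstream (37.5, 19.9, 60.5 and 53.2 tags). Regions at 7.3, 7.7 and 9.1 kb were called in monocytes only. The Irf8 call was lost when WT CMP/GMP, Cxcr3-/- CMP/GMP or WT monocytes were left out, each in turn.

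Spi1, which encodes PU.1, had 56.3, 68.9, 76.9 and 52.2 tags (0.02 ± 0.19 SE, adjusted p = 0.938), with overlapping groups. Bhlhe40 (0.74), a helix-loop-helix repressor gene, Tcf4 (0.81), a factor gene of plasmacytoid dendritic cells, Batf (0.52), Id2 (0.48) and the clock gene Per3 (0.44) were also higher in monocytes. Gfi1 (-0.67) and Irf4 (-0.69) were higher in CMP/GMP. Their differences turned to 0.13 and 0.11 with background scaling, although the Gfi1 start alone was called under both. The Gfi1 call was lost when either CMP/GMP library was left out, the Irf4 call without the Cxcr3-/- one, and the Bhlhe40 call without the WT one.

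**Figure D3:**
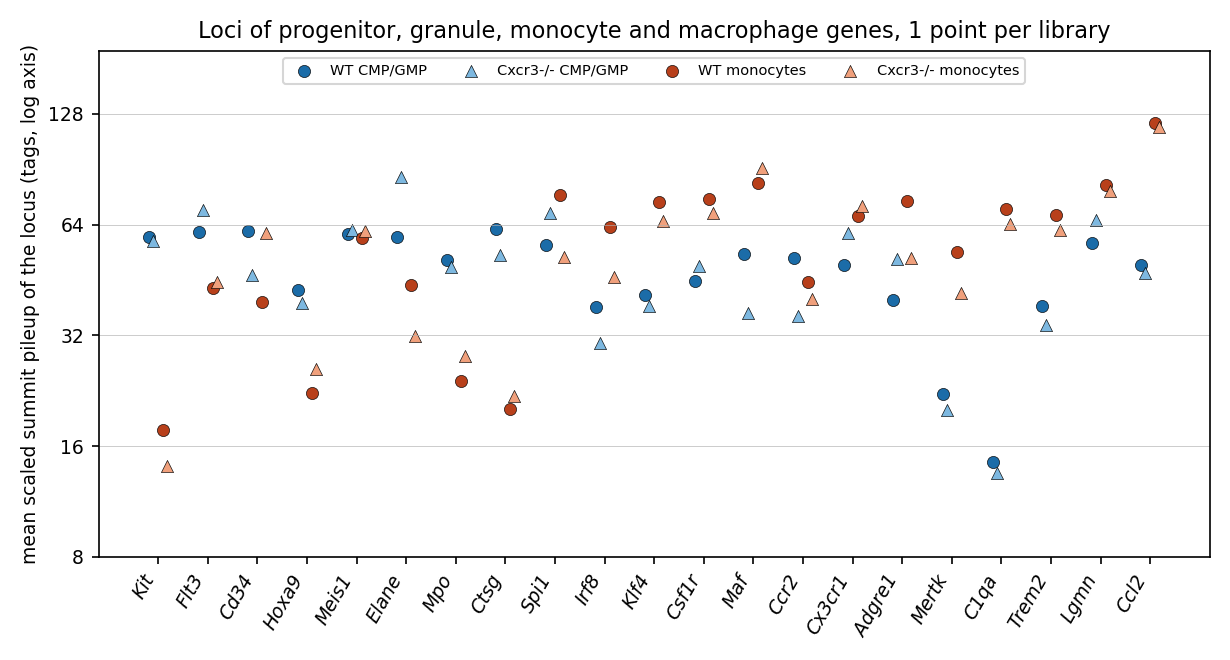
Mean scaled pileup in tags on a log2 axis for 21 loci of defining genes, with 1 point per library. The libraries separate by cell type at Kit (59.0 and 57.9 against 17.6 and 14.1 tags) and at the C1q genes (14.5 and 13.5 against 70.5 and 64.3), and overlap at Cd34, Meis1, Spi1 and Ccr2.

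Among monocyte and colony-stimulating factor receptor genes, 6 of 21 tested (28.6%) were higher in monocytes and 1 (4.76%) in CMP/GMP, against 14.5% and 11.9% of all genes. The counts were 2 and 1 without WT CMP/GMP, 4 and 0 without Cxcr3-/- CMP/GMP, 9 and 2 without Cxcr3-/- monocytes, and 15 and 0 with background scaling. Csf1r, the receptor gene on which monocytes depend, had 44.9, 49.3, 75.1 and 68.9 (0.61 ± 0.17 SE, adjusted p = 0.00926), and 6 of its 15 regions were called in monocytes only and 1 in CMP/GMP only, with 55.7 and 51.7 tags. Its call was lost when either CMP/GMP library was left out. A set of 3 regions shared by S100a4, S100a5 and S100a6 had 28.4, 35.4, 73.4 and 73.1 (1.21 ± 0.19). S100a4 encodes a calcium-binding protein of motile monocytes. The inhibitory receptor gene Cd300a (0.84), the signal regulatory gene Sirpa (0.62), the versican gene Vcan (0.61) and the lysozyme gene Lyz2 (0.50) were also higher in monocytes, Vcan not without the WT CMP/GMP library.

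Spn, which encodes CD43, had 43.6, 48.7, 14 and 14.2 tags in 1 region (-1.71 ± 0.32 SE, adjusted p = 0.000272). This was higher in CMP/GMP, a call that ended with background scaling (-0.91, adjusted p = 0.057) and without the Cxcr3-/- CMP/GMP library. Of the 10 regions of the Spn locus, 2 were called in monocytes only and 0 in CMP/GMP only, and such regions do not enter its value. Ccr2, the receptor gene of classical monocytes, had 52.1, 36.2, 44.6 and 40.2 in 1 tested region (-0.04 ± 0.21 SE, adjusted p = 0.919), with overlapping groups. Cx3cr1, the fractalkine receptor gene of patrolling monocytes, had 49.8, 60.6, 67.4 and 72.0 (0.34 ± 0.17 SE, adjusted p = 0.144). The labelled cell types did not all separate at these receptor loci, while the loci of Kit, Ctsg, Klf4 and Csf1r were called.

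Counted by gene, macrophage genes had the largest share called toward monocytes of the lists examined with the main settings. Of 31 tested, 15 (48.4%) were higher in monocytes and 2 (6.45%) in CMP/GMP, against 14.5% and 11.9% of all genes. The median difference was 0.45. The 31 genes held 29 different sets of regions, since the C1q genes share theirs and were each counted. C1qa, C1qb and C1qc, which encode the chains of complement C1q, lie side by side (C1qa at chr4:136895916-136898844) and shared 2 tested regions with 14.5, 13.5, 70.5 and 64.3 tags (2.27 ± 0.26 SE, adjusted p = 6.10e-07). Mertk, a receptor gene for dead cells, had 22.2, 20.1, 53.9 and 41.7 (1.17 ± 0.26 SE, adjusted p = 0.00141). At its start the difference was 0.59 and did not pass, and a region 107.9 kb downstream had 17.0, 13.3, 54.9 and 46.1 tags. Trem2 had 38.5, 34.2, 68.1 and 61.8 (0.84 ± 0.18 SE, adjusted p = 0.00132) over its locus, less than at the start alone. Both monocyte libraries were higher at all 3 loci.

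Arg1, the arginase gene, had 31.8, 35.8, 80.5 and 112 (1.49 ± 0.18), and Siglec1, a sialic acid receptor gene of tissue macrophages, had 21.7, 22.6, 69.9 and 50.9 (1.43 ± 0.23). The elastase gene Mmp12 (1.29), the scavenger receptor genes Cd36 (1.05), Msr1 (1.01) and Marco (0.55), the lipid sensor gene Pparg (0.89), the iron exporter gene Slc40a1 (0.85), Spp1 (0.64) and Hmox1 (0.58) were also higher in monocytes. Mrc1, the mannose receptor gene (-0.77), and Vsig4, a complement receptor gene (-0.80), were higher in CMP/GMP. Both of these calls ended with background scaling, where the differences were 0.03 and 0.005, and when either CMP/GMP library was left out. Outside the locus values, Vsig4 held 2 regions called in monocytes only and 0 in CMP/GMP only, and Mrc1 held 3 and 2. Adgre1, which encodes F4/80 (40.0, 51.7, 74.4 and 52.0 tags, 0.45 ± 0.19 SE, adjusted p = 0.086), and Lgmn, the legumain gene (56.9, 66.0, 82.2 and 79.2 tags, 0.40 ± 0.17 SE, adjusted p = 0.078), did not pass, although their groups did not overlap. The count of 15 ranged from 11 to 16 when 1 library was left out. With background scaling it was 21, and 0 genes of the list were then higher in CMP/GMP.

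Lysosome genes were higher in monocytes at 10 of 31 loci (32.3%) and higher in CMP/GMP at 1 (3.23%). Over all genes the shares were 14.5% and 11.9%. The median difference of the list was 0.23. Hexa, a subunit gene of the hexosaminidase that degrades gangliosides, had 34, 25.4, 62.0 and 60.0 (1.05 ± 0.20). Protease genes of the list that were higher in monocytes were Ctsk (0.75), Ctsb (0.68), Ctsd (0.57) and Ctsc (0.51), and lipid-handling genes were Npc2 (0.59), a cholesterol carrier, and Lipa (0.56), the acid lipase. Mitf (0.46), a factor gene that controls lysosome genes, was among them. Lamp2 (-0.79), a lysosomal membrane protein gene, was higher in CMP/GMP with the main scaling (0.009 with background scaling), though its locus held 3 monocyte-only and 0 CMP/GMP-only regions. Without the WT or the Cxcr3-/- CMP/GMP library, 1 or 3 of these genes were higher in monocytes, with genotype as a term 4 were, and with background scaling 20 were. Lipa and Lamp2 lost their calls when either CMP/GMP library was left out, Lamp2 also without Cxcr3-/- monocytes, and Ctsb without WT CMP/GMP.

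Chemokine and receptor genes were higher in monocytes at 12 of 28 loci (42.9%) and in CMP/GMP at 2 (7.14%), against 14.5% and 11.9% of all genes. The median difference was 0.45, and with background scaling 21 and 0 were called. The 28 genes held 27 different sets of regions. Ccl2 and Ccl7, which attract monocytes and share 1 tested region, had 49.7, 47.2, 121 and 118 (1.30 ± 0.16 SE, adjusted p = 1.84e-06). Cxcr6, the receptor gene for Cxcl16, had 25.4, 19.9, 72.6 and 52.0 (1.45 ± 0.23). Ackr3, a scavenging receptor gene (1.15), the chemokine genes Ccl12 (1.11), Ccl6 (1.09), Cxcl1 (1.06), Cxcl2 (0.96) and Ccl17 (0.79), and the receptor genes Ccr3 (0.97), Fpr1 (0.74) and Ccr1 (0.69) were also higher in monocytes. Cxcl3 (-1.12, -0.32 and not called with background scaling), a neutrophil-attracting chemokine gene, was higher in CMP/GMP.

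Cxcr3, the gene inactivated in 2 of the 4 libraries, had 41.2, 62.0, 38.1 and 27.2 tags in its tested region (-0.65 ± 0.23 SE, adjusted p = 0.0352). Cxcr3-/- CMP/GMP was the highest library and Cxcr3-/- monocytes the lowest, and the call was lost when either Cxcr3-/- library was left out and with genotype as a term, while background scaling gave 0.15. Since the labels do not say which part of the gene was deleted, this region does not check the genotype.

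**Figure D4:**
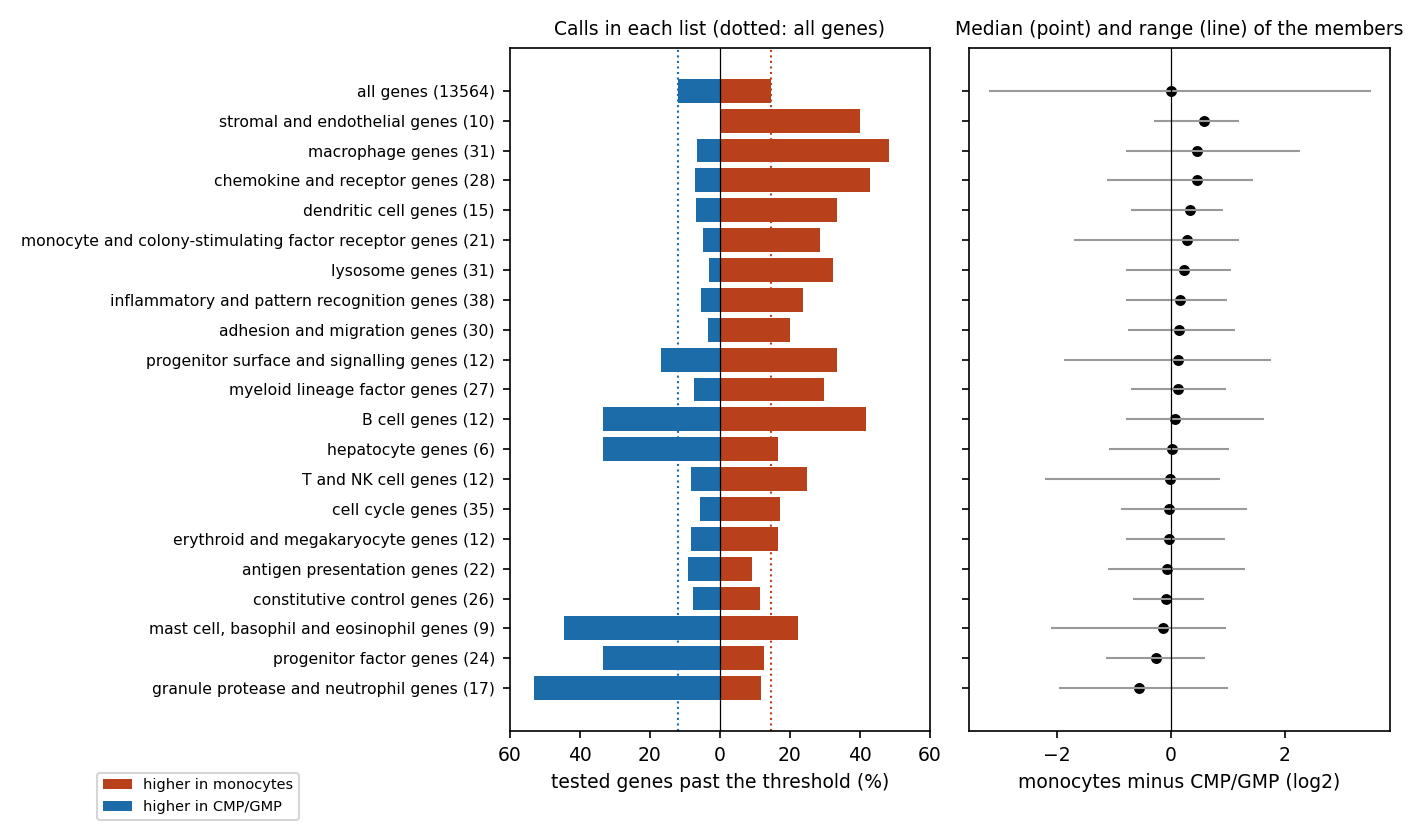
Left, the percentage of tested genes of each list called higher in monocytes and in CMP/GMP, with dotted lines at the share over all genes (14.5% and 11.9%). Right, the median and range of the log2 difference of monocytes minus CMP/GMP, with the granule protease list lowest (-0.56) and the stromal and endothelial list highest (0.59, 10 genes tested).

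The inflammatory, adhesion, antigen presentation and cell cycle lists had median differences of 0.15, 0.14, -0.06 and -0.04. Over all genes, 14.5% were higher in monocytes and 11.9% in CMP/GMP. With background scaling 6245 of all 13564 genes were higher in monocytes and 50 in CMP/GMP, beside which the background-scaled counts of these lists stand. Calls over all genes also became fewer when either CMP/GMP library was left out. Of 38 inflammatory and pattern recognition genes, 9 (23.7%, against 14.5% of all genes) were higher in monocytes, among them the interleukin 1 receptor antagonist gene Il1rn (0.91), the fungal receptor gene Clec7a (0.98) and the RNA sensor gene Tlr13 (0.89), and 2 in CMP/GMP, the NF-kB subunit gene Rel (-0.79) and the NF-kB pathway inhibitor gene Tnfaip3 (-0.64). The count of 9 became 1 without WT CMP/GMP, 5 without Cxcr3-/- CMP/GMP and 21 with background scaling. Of 30 adhesion and migration genes, 6 (20%) were higher in monocytes, led by the integrin gene Itgav (31.1, 24.8, 60.2 and 60.4 tags, 1.12) and the actin crosslinker gene Actn1 (1.10). In CMP/GMP 1 (3.33%) was higher, Icam2 (-0.75), and with background scaling 17 and 0 were called. Antigen presentation genes had 2 of 22 (9.09%) higher in each cell type, below the shares over all genes. These were Cd40 (1.30) and Cd274 (0.62) toward monocytes and H2-Ob (-1.10) and H2-DMb1 (-0.55) toward CMP/GMP. Without WT monocytes 2 were higher in monocytes and 7 in CMP/GMP, with a median of -0.28, without Cxcr3-/- monocytes 3 and 1, with a median of 0.06, when either CMP/GMP library was left out 1 was higher in monocytes, and with background scaling 9 and 0 were called. Of 35 cell cycle genes, 6 were higher in monocytes (17.1%, against 14.5% of all genes), 2 without WT CMP/GMP and 16 with background scaling. These included the kinase inhibitor gene Cdkn2b (1.33) and E2f2 (1.12), and the cyclin gene Ccnd2 (-0.88) was among 2 higher in CMP/GMP. With background scaling, the calls toward CMP/GMP named here ended, and the differences of Rel, Tnfaip3, Icam2 and H2-DMb1 turned positive. Without WT CMP/GMP the calls of Clec7a and Tlr13 were lost, without Cxcr3-/- CMP/GMP those of Il1rn, Rel, H2-Ob and Ccnd2, when either was left out those of Tnfaip3, Icam2, Cd274 and H2-DMb1, and without Cxcr3-/- monocytes that of H2-DMb1. Constitutive control genes, 26 of 26 tested, had a median of -0.09, with 3 higher in monocytes and 2 in CMP/GMP, 0 and 0 when either CMP/GMP library was left out and 1 and 6 without WT monocytes. With background scaling their median was 0.72 and 11 were higher in monocytes.

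Loci of other cell types differed in both directions. Over all genes, 14.5% were higher in monocytes and 11.9% in CMP/GMP. Of 9 mast cell, basophil and eosinophil genes, 4 (44.4%) were higher in CMP/GMP and 2 (22.2%) in monocytes, Ccr3 (0.97) and the factor gene Gata3 (0.52). The single tested region of Prg2, a major basic protein gene, lay beyond the end of the gene, over the start of its neighbour Prg3, and had 67.8, 67.9, 13 and 18.9 tags (-2.11 ± 0.25 SE, adjusted p = 1.28e-06, -1.31 and still called with background scaling). Over both tested regions of Prg3, 1 of them higher in monocytes, the difference was -0.65 (0.15 with background scaling). The histidine decarboxylase gene Hdc had -1.18, a call lost with background scaling and without Cxcr3-/- CMP/GMP. Of 12 T and NK cell genes, 1 (8.33%) was higher in CMP/GMP, Lef1, a T cell factor gene (63.0, 70.1, 10.2 and 20.1 tags, -2.21 ± 0.29 SE, adjusted p = 4.23e-06, -1.41 and still called with background scaling). Outside this value, the Lef1 locus held 2 regions called in monocytes only and 0 in CMP/GMP only. In monocytes 3 genes (25%) were higher, the surface receptor genes Cd5 (0.86) and Cd2 (0.49) and again Gata3. Of 12 B cell genes, which held 10 different sets of regions, 5 (41.7%) were higher in monocytes, among them Il7r (27.8, 17.5, 69.8 and 67.2 tags, 1.64) and Ms4a1 (1.42), and 4 (33.3%) in CMP/GMP. Of 10 stromal and endothelial genes, 4 (40%) were higher in monocytes, including the receptor gene Kdr (53.3, 45.0, 100.5 and 126 tags, 1.20), and 0 in CMP/GMP. Of 12 erythroid and megakaryocyte genes, 2 (16.7%) were higher in monocytes and 1 (8.33%) in CMP/GMP, near the shares over all genes. Of 15 dendritic cell genes, 5 (33.3%) and 1 (6.67%) were. These counts were small and moved with the libraries and the scaling, as did the counts over all genes. Without WT CMP/GMP the counts toward monocytes and CMP/GMP were 1 and 2 in the mast cell, 0 and 1 in the T and NK cell, 3 and 0 in the B cell, 2 and 0 in the stromal, 1 and 1 in the erythroid and 3 and 0 in the dendritic cell list. Without Cxcr3-/- CMP/GMP they were 1 and 1, 1 and 1, 4 and 1, 3 and 0, 0 and 0, and 1 and 0 in the same order. Without WT monocytes 3 and 3 were called in the erythroid list, and with background scaling 11 and 0 in the dendritic cell list. Accessibility of these loci is not expression, and whether other cell types were present in the cultures was not tested.

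The extent of a locus also mattered for some genes. With flanks of 2 kb in place of 10 kb the calls of Irf8, Mertk, Mylk2 and S100a8 were lost. With flanks of 50 kb the sign turned at Bhlhe40 (-0.11), Irf4 (0.59), S100a8 (-0.13), Trem2 (-0.12) and Ccr2 (0.54), and the calls of Irf8, Mertk, Flt3, Gfi1, Fli1, Elane, Mrc1, Spn, Prg2, Ryr1, Lipa, Lamp2, Il1rn, Tlr13, Icam2, Cd40, H2-Ob and H2-DMb1 were lost.

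Regions higher in monocytes lay less at gene ends, defined as 1 kb around an annotated start or end, than tested regions did. Of the tested regions, 35.4% lay at a gene end, against 14.6% of those higher in monocytes and 34.8% of those higher in CMP/GMP. At gene ends 10.2% of regions were higher in monocytes and 14.5% in CMP/GMP, while inside genes the shares were 33.0% and 13.9% and between genes 32.1% and 16.1%. With background scaling the shares toward monocytes were 50.4% at gene ends, 62.3% inside genes and 60.5% between genes. Cell-type-only regions were narrower (median widths of 233 bp in monocytes and 241 bp in CMP/GMP) than tested regions (551 bp), and 6.20% and 8.80% lay at a gene end.

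Among cell-type-only regions at a gene end, a larger share than among tested regions lay at the 3′ end. This applied to 330 of 873 monocyte-only regions (37.8%) and 189 of 602 CMP/GMP-only regions (31.4%), against 497 of 7669 tested regions (6.48%). Among tested regions called higher in monocytes and in CMP/GMP the shares were 14.85% and 7.39%. Tested regions had to be called in all 4 libraries with a mean of at least 30 tags, whereas most cell-type-only regions were weak. The part of this selection in the shares was not tested. Counted here were ends of genes in the RefSeq promoter table used, which gives the strand, and chromosome 18 was not used for these counts or for the start sites. This left out 204 of 1077 monocyte-only, 169 of 771 CMP/GMP-only and 1594 of 9263 tested regions at a gene end. The strongest in CMP/GMP lay at the 3′ ends of Jun, H3f3b (102 and 93.8 tags), Fosb (77.5 and 64.2), Rhob (63.0 and 52.4) and Fos (50.9 and 53.9), of which Jun, Fosb and Fos encode AP-1 subunits. At the start of Jun all 4 libraries were open, with 162, 186, 139.5 and 172.5 tags, and no difference was called. The strongest in monocytes lay at Cdca3 (113 and 105 tags), Spef1l, Cyp8b1 and Ndufs8. For 30 immediate early genes, a list chosen after these values were seen, 9 had a CMP/GMP-only region in or within 1 kb of the gene and 6 a monocyte-only region, against 21.0% and 33.0% of the 16371 genes with any region there.

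Promoter sequences were compared between classes of start sites, over the 300 bases from 250 before to 50 after a RefSeq start. The AP-1 letters TGANTCA, searched on both strands, were in 7.85% of all 32585 promoters. They were in 10.2% of the 889 that were higher in monocytes, 4.16% of the 1371 higher in CMP/GMP and 3.77% of the 7612 tested with no call. The share was 9.63% at the 19366 starts without a called region, which make up most of all promoters. At 259 starts called in monocytes only the share was 25.5%, and at 243 called in CMP/GMP only it was 2.06%. GAGGAAGT, a PU.1 site, was in 6.41% of monocyte-higher and 3.36% of CMP/GMP-higher promoters (3.22% of all), and TGCTGAC, part of a MAF site, in 6.52% and 2.77% (4.70% of all). In monocyte-only and CMP/GMP-only promoters the shares were 6.56% and 4.94% for PU.1 and 8.11% and 5.35% for MAF. MAF and AP-1 letters can overlap in the same bases. TGTGGTT, a RUNX site, was in 9.47% of CMP/GMP-only promoters and 6.56% of monocyte-only ones (5.29% of all), and TTGCNCAA, a C/EBP site, in 5.35% and 2.70% (2.95% of all). In CMP/GMP-higher and monocyte-higher promoters these shares were closer, 4.45% and 4.61% for RUNX and 2.63% and 2.14% for C/EBP. Promoters without a called region, with a median of 48.3% G and C, held PU.1 letters in 2.83%, MAF in 5.41%, RUNX in 6.2% and C/EBP in 3.18%. The classes also differed in base composition, with a median of 52% G and C in monocyte-only and 57% in CMP/GMP-only promoters, 61% and 61.3% in those higher in monocytes and CMP/GMP, and 62.3% in those with no call. The part of base composition in the motif shares was not tested, and a match of letters does not show binding.

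**Figure D5:**
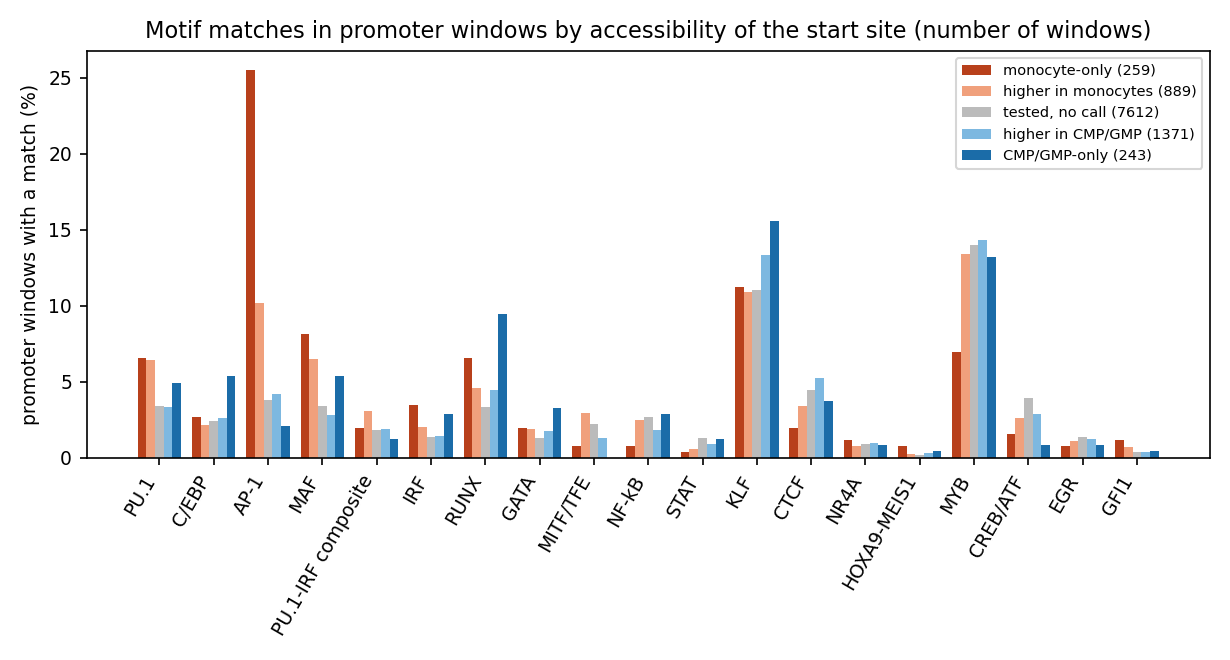
Percentage of promoters that hold each of 19 letter strings on either strand, for promoters higher in monocytes, higher in CMP/GMP, tested with no call, monocyte-only and CMP/GMP-only. The AP-1 string stands out at 25.5% of monocyte-only promoters against 2.06% of CMP/GMP-only ones.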

How the data were processed

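Omni-ATAC-seq libraries of WT and Cxcr3-/- CMP/GMP and monocytes were grouped by labelled cell type. The submitters' processing notes list Trim Galore, Bowtie2 and SAMtools as tools and mm10 as the build. No source used here names the peak caller or says whether duplicate sequencing runs were pooled. The deposited score is the whole part of 10 times the −log10 q and was not used. The fold enrichment (a ratio) and the −log10 p deposited by the authors were solved together for the whole-number summit pileup under a Poisson background with 1 added tag, within 0.001 on the −log10 p scale. This failed for 0, 2, 1 and 0 intervals. The deposited summit positions were used as given.

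Pileups were divided by the median ratio to the geometric mean over the 44591 regions called in all 4 libraries (factors 0.826, 1.35, 1.08 and 0.846). Regions called in all 4 with a mean of at least 30 tags were fitted with limma 3.58.1 in R 4.3.3 (trend, two-sided, no genotype term). Simulated data used the library factors and mean pileups of these regions, with 67, 67 and 66 of 26167 regions changed by 1.5-fold, 2-fold and 4-fold. Of these, 7.5%, 56.7% and 100% were recovered. Far more regions were called in the data, which loosens the adjusted threshold, so these shares are not a detection limit here. A gene's value is the mean log2 pileup over tested regions in its body and 10 kb on either side (RefSeq, GRCm38.p6), and neighbours can share regions. Cell-type-only regions do not enter it, and at some loci they lay opposite to the call. Plekhg5 and Tnfaip3, higher in CMP/GMP, each held 2 monocyte-only and 0 CMP/GMP-only regions. Regions were not counted with a tool for counts, since the files hold none.

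The members, gene lists and rules were chosen with earlier results of these data known. Named were the 12 genes per direction with the largest agreement (the smaller of the differences in the 2 genotypes, same sign, 3 or more tested regions), up to 3 called genes per list and direction, the 8 regions per direction, the 6 cell-type-only regions per direction, Cxcr3 and 22 defining genes. Some genes that these rules name are not reported here. Further called list members, the start sites, the 3′ ends and the locus details were chosen after their values were seen. Same-genotype libraries did not deviate together (correlation of the genotype difference between cell types -0.239 over genes and -0.165 over regions), so genotype did not serve as a block. Alternatives were left-out libraries, a genotype term, other scaling, pileup minimum, summed summits, no trend, other flanks and, for presence, list length, threshold and distance.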

Additional observations from a re-analysis of the deposited data

Results flagged for a closer look

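At 3 loci of defining genes the difference between the cell types had opposite signs in the genotypes, which was not tested. Over all tested genes the sign was the same at 68.6%, so opposite signs were frequent. The difference over both genotypes was small at these loci (-0.14 at Cd34, -0.04 at Ccr2 and 0.02 at Spi1). The log2 difference of monocytes minus CMP/GMP in Cxcr3-/- less that in WT was 1.03 at Cd34, 0.373 at Ccr2 and -0.851 at Spi1.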

How the results depend on the processing

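Counts of calls depended on scaling and on the CMP/GMP libraries. With background scaling, 15057 regions and 6245 genes were higher in monocytes and 383 and 50 in CMP/GMP, and quantile normalization gave 2440 genes higher in CMP/GMP. A minimum of 60 tags, which tests fewer regions, left 1965 and 1211 regions and 1171 genes higher in monocytes, and a minimum of 15 or none gave 6599 or 6789 regions higher in CMP/GMP. Leaving out 1 library gave 2142 to 4089 regions and 491 to 2443 genes higher in CMP/GMP and 890 to 2315 genes higher in monocytes. It gave 18862 to 32473 monocyte-only and 9775 to 17842 CMP/GMP-only regions, where fewer calls are required by construction. A −log10 q of at least 5 left 5729 CMP/GMP-only regions. With genotype as a term (replicate block), 5804 and 3264 regions and 1427 and 1098 genes were called, although the genotypes did not pair the libraries. Of 140 named genes and regions, 48 lost their call without WT CMP/GMP, 48 without Cxcr3-/- CMP/GMP, 6 without WT monocytes, 8 without Cxcr3-/- monocytes and 22 with the genotype term, and none of these reversed. The 22 whose calls the genotype term ended were Flt3, Hoxa7, Hoxa9, Hoxa10, Fli1, Tcf7l2, Il1r1, S100a8, Gfi1, Lipa, Cd274, H2-DMb1, Cd2, Gata3, Cxcr3, E2f1, Igll1, Vpreb1, Chmp2a, Gusb, Gapdh and Rab7 (adjusted p from 0.055 at Flt3 to 0.12 at S100a8). Further list members named above that are not among the 140 are not covered by these counts.

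With background scaling, which adds a constant to every gene, the sign turned at Chmp2a (0.29), Cxcr3 (0.15), E2f1 (0.33), Fcer2a (0.0015), Flt3 (0.22), Gfi1 (0.13), H2-DMb1 (0.25), Hoxa7, Hoxa9 and Hoxa10 (0.043), Icam2 (0.052), Igll1 and Vpreb1 (0.29), Irf4 (0.11), Klrd1 (0.10), Lamp2 (0.0088), Mrc1 (0.025), Polr2a (0.13), Prg3 (0.15), Rel (0.0067), Tfrc (0.0085), Tnfaip3 (0.16) and Vsig4 (0.0050). With 2 kb flanks it turned at Cdc6 (-0.041), E2f1 (0.18) and Klrd1 (0.034), and with 50 kb flanks at Bhlhe40 (-0.11), Ccr2 (0.54), Cd5 (-0.26), Gusb (-0.017), Irf4 (0.59), Polr2a (0.59), S100a8 (-0.13) and Trem2 (-0.12). The cause was not tested. List counts and start sites under other settings were added after seeing the data. At median summit pileups of 21 to 29 tags, single regions are coarse. The simulation recovered 7.5% of 1.5-fold changes, but few regions were changed there, so it does not set the detection limit in these data. Calls below 1.5-fold did occur, as at the locus of Gusb (1.38-fold).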
